A study of Homo sapiens with 12 samples.

Results

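Nucleotide synthesis and one-carbon metabolism were followed as a list of 37 genes, chosen by name from the steps that make, salvage or take up purines and pyrimidines and that carry folate-bound carbon. Of these, 36 were measured among 19775 genes, each read from its brightest probe set on average. UCK2, a uridine kinase, was not used because each of its probe sets also names another gene. The arrays came from Rec-1, SP-49 and Mino, 3 established human lines of a B-cell cancer called mantle cell lymphoma. Each line had 2 arrays of GSI cells, given 1 µM of compound E, and 2 arrays of Mock cells, given 0.1% DMSO, both for 24 h. Compound E is a gamma-secretase inhibitor, which stops the cleavage that activates Notch receptors, so the comparison asks what follows when that cleavage is blocked. Rec-1 and SP-49 cells of both groups grew in 10% serum and Mino cells of both groups in 15% serum, so the serum level goes with the line.

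Cells build purine rings step by step on a ribose phosphate called PRPP, and they build the pyrimidine ring first and then attach it to PRPP. Both routes end in the triphosphates used for RNA and DNA, and a salvage route reuses bases and nucleosides taken up from outside. Folate carries single carbons, mostly taken from serine in the mitochondria, to the purine ring and to thymidylate. Growing B cells draw heavily on these routes, and MYC, a transcription factor, is known to bind and activate many of the genes in them.

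All values are log2 levels as deposited, and a change is the GSI mean minus the Mock mean, so that a change of -1 is 2-fold lower in GSI arrays. All 5 measured B-cell markers and all 3 mantle cell lymphoma markers were above the median value of 1.99 in at least 1 group. Of the T-cell markers 3 of 4 were above it, led by CD3D, and none of the 3 measured myeloid markers was. All 3 epithelial markers, the 2 measured red-cell markers, 2 of 3 stromal markers and 1 of 3 NK-cell markers were above it too. A level above this median is therefore no sign of a cell type by itself. HES1, a Notch target, had values of 2.23 and 1.70 in Rec-1 GSI arrays against 5.86 and 5.67 in Rec-1 Mock arrays. In SP-49 it had 2.53 and 2.33 in GSI arrays against 6.11 and 5.77 in Mock arrays. In Mino it was low in both groups, with 1.82 and 1.73 in GSI arrays against 1.69 and 2.002 in Mock arrays. RNA quality can be read from GAPDH control probe sets, whose 3′ signal minus 5′ signal was 0.593 and 0.488 in Rec-1 GSI arrays against 0.413 and 0.367 in Rec-1 Mock arrays. GSI replicate 2 of Rec-1 and GSI replicate 2 of SP-49 had the narrowest spread of values over probe sets, with SDs of 1.95 and 1.996.

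In Rec-1, most genes of purine ring building and of pyrimidine synthesis were lower with GSI, as were 3 of 8 one-carbon genes. Of the 36 members, 14 fell and 1 rose by limma at an adjusted p of 0.05, and the median change over all 36 was -0.43. Those falls were 38.9% of the members, beside 3.62% of all genes that fell, 2.15% that rose and a median of 0.01 over all genes. The members were chosen with earlier results of these data known, so these shares are a description and no test. Falls of more than 2-fold were found for SLC29A1, ATIC, SLC25A32, CAD and PPAT. Both GSI arrays lay below both Mock arrays for 25 members, beside 22.3% of all genes, and above them for 4 (DCK, TK1, TYMS and SHMT2), beside 22.9% of all genes. The median over members was -0.27 on GSI replicate 1 and -0.58 on GSI replicate 2, each against the Mock mean. The count of changed members was 15 in all, 9 without Rec-1 Mock replicate 1, 8 without Rec-1 Mock replicate 2 and 9 without the doubted arrays, which were the second GSI array of Rec-1 and that of SP-49. The summed level of the 4 T-cell markers also ran lower in Rec-1, from 9.63 to 10.1 in GSI arrays against 10.5 to 12.7 in Mock arrays, and the GAPDH difference given above ran higher. Of the T-cell markers, only CD3D was lower without overlap, with 4.03 and 4.30 in GSI arrays against 4.81 and 4.79 in Mock arrays. CD3E, CD3G and CD2 were low, and their GSI and Mock values overlapped. The summed B-cell markers ran higher, from 43.8 to 44.1 in GSI arrays against 42.4 to 42.7 in Mock arrays. Of them, MS4A1, CD79A and CD79B were higher in GSI arrays. PAX5 was lower, with 8.42 and 8.49 in GSI arrays against 8.86 and 8.87 in Mock arrays. CD22 was lower too, with 5.36 and 5.27 in GSI arrays against 5.50 and 5.66 in Mock arrays. The summed myeloid markers ran higher, from 5.04 to 5.34 in GSI arrays against 4.68 to 4.83 in Mock arrays. Their sum also ran higher with GSI in SP-49 (4.42 to 4.53 against 4.31 to 4.39) and in Mino (4.91 to 4.93 against 4.47 to 4.71). In Rec-1 the mantle cell lymphoma sum (17.7 to 18.2 against 17.3 to 17.6) and the red-cell sum (4.60 to 5.00 against 4.18 to 4.58) ran higher too. Each of the 3 measured myeloid markers was under the median of all values. The part of these markers and of the GAPDH difference in the members' changes was not tested. In RNA of whole cultures, fewer cells that express a gene and less of its RNA per cell cannot be told apart.

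**Figure D1:**
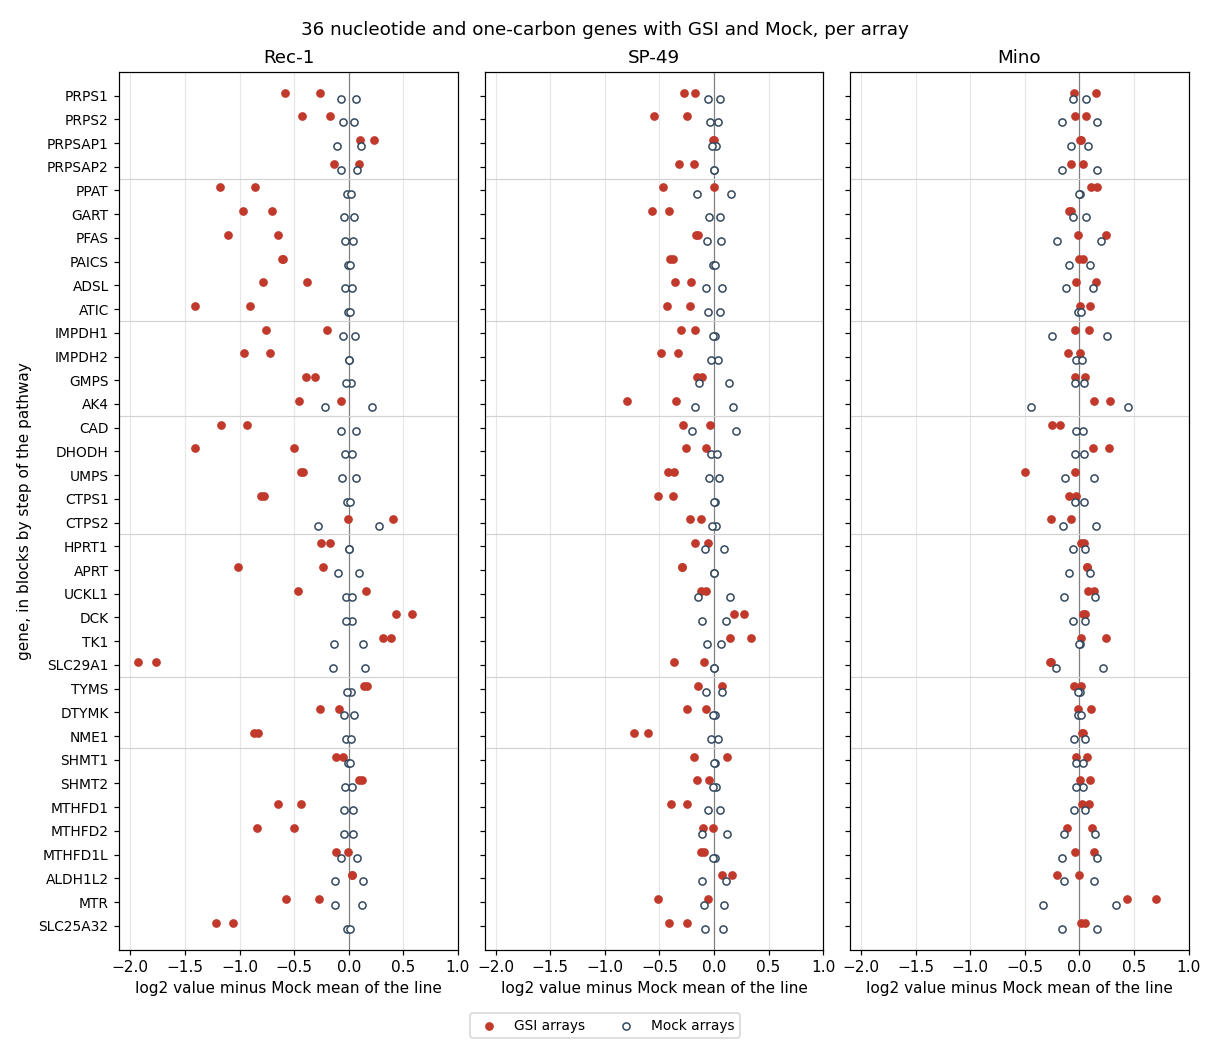
Values of the 36 measured members on each array, as log2 value minus the Mock mean of the same line, with 1 panel per line and filled points for GSI arrays and open points for Mock arrays. In Rec-1 the GSI points of 25 members lie below both Mock points, with SLC29A1 furthest to the left, while in Mino the GSI and Mock points of most members overlap.

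Of the ring-building enzymes of purine synthesis, 5 of 6 fell in Rec-1, and their median change was -0.86. ATIC, which closes the ring in the last steps to IMP, had 6.94 and 6.43 in GSI arrays against 7.84 and 7.85 in Mock arrays. Its GSI values were all below its Mock values, and the change was -1.16 (95% interval -1.51 to -0.80, adjusted p = 0.00232). PPAT, the amidotransferase that commits PRPP to the purine route, had 5.86 and 5.54 in GSI arrays against 6.70 and 6.73 in Mock arrays. The 2 groups did not overlap, and PPAT fell 2.02-fold (adjusted p = 0.00603). PFAS, an amidotransferase later in the route, had 6.61 and 6.16 in GSI arrays against 7.30 and 7.23 in Mock arrays. It fell by 0.88 (adjusted p = 0.0153), with GSI replicate 2 the lower array. GART, a trifunctional enzyme that uses formyl-folate, had 6.48 and 6.22 in GSI arrays against 7.23 and 7.14 in Mock arrays, a fall of 1.78-fold (adjusted p = 0.00424). PAICS, a bifunctional enzyme of the following steps, had 7.71 and 7.70 in GSI arrays against 8.30 and 8.32 in Mock arrays. Its arrays repeated closely in both groups, and it fell 1.52-fold (adjusted p = 0.0117). ADSL, which acts in both IMP and AMP synthesis, had 7.36 and 6.96 in GSI arrays against 7.71 and 7.77 in Mock arrays, a change of -0.58 that missed the threshold (adjusted p = 0.0584).

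The calls of these enzymes differed in how they held. GART and ATIC passed whichever of the 12 arrays was dropped. PFAS lost the call without Rec-1 Mock replicate 1 (adjusted p = 0.106), Rec-1 Mock replicate 2 (0.0773) or Rec-1 GSI replicate 2 (0.0919). PAICS lost it without Rec-1 Mock replicate 1 (adjusted p = 0.0749) or replicate 2 (0.0837). PPAT lost it without Rec-1 Mock replicate 2 (adjusted p = 0.0529), and the mean of its probe sets changed by -0.33 (adjusted p = 0.215).

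Upstream and downstream of the ring, fewer members changed in Rec-1. None of the 4 genes of PRPP supply passed the threshold by its brightest probe set. PRPS1, a PRPP synthetase, had 6.31 and 5.99 in GSI arrays against 6.51 and 6.64 in Mock arrays, a change of -0.43 (adjusted p = 0.126). The other PRPS1 probe set fell by 0.70 (adjusted p = 0.0114, over all probe sets), so the call of this gene depends on the probe set. Its paralog PRPS2 changed by -0.30 (adjusted p = 0.341), with 6.76 and 6.50 in GSI arrays against 6.98 and 6.87 in Mock arrays. The synthetase-associated proteins PRPSAP1 and PRPSAP2 changed by 0.17 (adjusted p = 0.54) and -0.02. After IMP, the route splits to AMP and GMP, and 1 of 4 members fell. That was IMPDH2, the main IMP dehydrogenase of growing cells on the way to GMP, with 7.84 and 7.60 in GSI arrays against 8.56 and 8.56 in Mock arrays. The GSI arrays were both lower, and the fall was 1.79-fold (adjusted p = 0.00345). Its paralog IMPDH1 had 4.21 and 3.65 in GSI arrays against 4.36 and 4.46 in Mock arrays, a change of -0.48 (adjusted p = 0.208) that rests mostly on GSI replicate 2. GMPS, which makes GMP, had a change of -0.35 (adjusted p = 0.153). AK4, a mitochondrial adenylate kinase, had -0.27 (adjusted p = 0.676), and its GSI and Mock values overlapped. Another AK4 probe set of nearly the same mean level (3.15, against 3.16 for the one used) fell by 0.99 (adjusted p = 0.0384, over all probe sets).

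In pyrimidine synthesis 3 of 5 members fell in Rec-1, and the median change was -0.79. CAD, which carries the first 3 activities of the route on 1 protein, had 6.14 and 5.90 in GSI arrays against 7.14 and 7.005 in Mock arrays. The groups were well apart, and CAD fell 2.07-fold (95% interval of the change -1.40 to -0.70, adjusted p = 0.00338). Its other probe set was dim, and the mean of both changed by -0.57 (adjusted p = 0.0133). CTPS1, the CTP synthase of activated lymphocytes, had 6.59 and 6.62 in GSI arrays against 7.38 and 7.41 in Mock arrays. Its arrays repeated closely in both groups, and it fell 1.73-fold (adjusted p = 0.00271). The paralog CTPS2 was near the bottom of the range in this line, with 2.39 and 1.98 in GSI arrays against 2.26 and 1.70 in Mock arrays, and its groups overlapped. DHODH, the mitochondrial enzyme that oxidises dihydroorotate, had 3.26 and 2.35 in GSI arrays against 3.72 and 3.79 in Mock arrays. The GSI arrays were far apart, so the change of -0.95 (adjusted p = 0.0332) became -0.50 without GSI replicate 2 (adjusted p = 0.109). The call was also lost without either Rec-1, SP-49 or Mino Mock array or either Mino GSI array, with an adjusted p of up to 0.162. Its other probe sets were dim, and the mean over all of them changed by -0.29 (adjusted p = 0.21). UMPS, which makes UMP, had 6.29 and 6.28 in GSI arrays against 6.78 and 6.65 in Mock arrays, a change of -0.43 (adjusted p = 0.167) with no overlap.

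Among the genes of salvage, uptake and phosphorylation, SLC29A1 had the largest change of any member. SLC29A1 is ENT1, the equilibrative carrier through which nucleosides and many nucleoside drugs enter cells. It had 5.06 and 5.22 in Rec-1 GSI arrays against 6.84 and 7.13 in Rec-1 Mock arrays. The groups were far apart, and the fall was 3.59-fold (95% interval of the change -2.21 to -1.47, adjusted p = 0.000231). Its other probe set fell by 1.01 (adjusted p = 0.0109, over all probe sets). DCK, the kinase that starts the salvage of deoxycytidine, was the member that rose. It had 8.97 and 8.83 in GSI arrays against 8.43 and 8.37 in Mock arrays, a change of 0.51 (adjusted p = 0.04). The groups did not overlap, but the call was lost whichever of the 12 arrays was dropped, with an adjusted p of up to 0.196. TK1, the cytosolic thymidine kinase, had 6.16 and 6.09 in GSI arrays against 5.64 and 5.91 in Mock arrays, a change of 0.35 (adjusted p = 0.201). Its other probe set changed by 0.69 (adjusted p = 0.0382, over all probe sets). The purine salvage enzymes HPRT1 and APRT changed by -0.21 (adjusted p = 0.392) and -0.63 (adjusted p = 0.112), and UCKL1, a uridine kinase relative, by -0.15 (adjusted p = 0.734). NME1, a kinase that turns nucleoside diphosphates into triphosphates, had 8.92 and 8.95 in GSI arrays against 9.76 and 9.80 in Mock arrays. The arrays of each group were almost equal, and NME1 fell 1.80-fold (adjusted p = 0.0019). The thymidylate enzymes had small changes that missed the threshold, 0.15 for TYMS (adjusted p = 0.574), the thymidylate synthase, and -0.18 for DTYMK (adjusted p = 0.492), which phosphorylates dTMP.

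**Figure D2:**
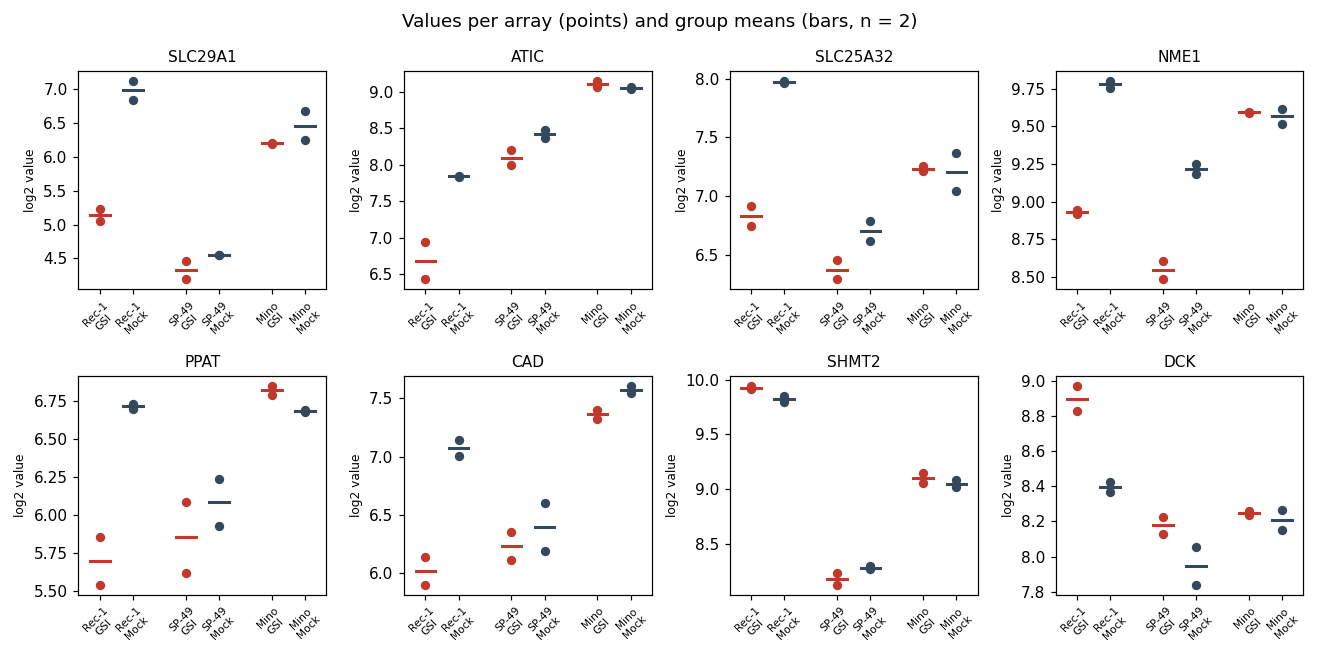
Log2 level of SLC29A1, ATIC, SLC25A32, NME1, PPAT, CAD, SHMT2 and DCK on each of the 12 arrays, with GSI left of Mock in each line and a bar at the group mean. In Rec-1 the 2 GSI points of SLC29A1 lie at 5.06 and 5.22 and the 2 Mock points at 6.84 and 7.13, while those of SHMT2 lie between 9.79 and 9.94 in both groups.

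In folate-linked one-carbon metabolism 3 of 8 members fell in Rec-1. SLC25A32, the mitochondrial folate carrier, had 6.91 and 6.75 in GSI arrays against 7.96 and 7.98 in Mock arrays. The groups were far apart, and it fell 2.20-fold (95% interval of the change -1.45 to -0.82, adjusted p = 0.00116). MTHFD2, a mitochondrial dehydrogenase and cyclohydrolase, had 7.78 and 7.45 in GSI arrays against 8.33 and 8.24 in Mock arrays, a fall of 1.59-fold (adjusted p = 0.0335). MTHFD1, its trifunctional cytosolic counterpart, had 8.06 and 7.85 in GSI arrays against 8.54 and 8.45 in Mock arrays, a fall of 1.46-fold (adjusted p = 0.0308). Both calls were lost without either Rec-1 Mock array, either SP-49 Mock array or Rec-1 GSI replicate 2, with adjusted p of up to 0.175 for MTHFD2 and 0.17 for MTHFD1, and the mean of the MTHFD1 probe sets changed by -0.30 (adjusted p = 0.102). SHMT2, the mitochondrial enzyme that takes the carbon from serine, had 9.94 and 9.91 in GSI arrays against 9.85 and 9.79 in Mock arrays. Its GSI values were slightly above its Mock values, and the change of 0.10 missed the threshold (adjusted p = 0.695, 95% interval -0.15 to 0.36). Its cytosolic paralog SHMT1, with MTHFD1L and ALDH1L2, stayed under the median of all values in every group mean, and a change cannot be read at such levels. MTR, the methionine synthase, changed by -0.42 (adjusted p = 0.36).

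**Figure D3:**
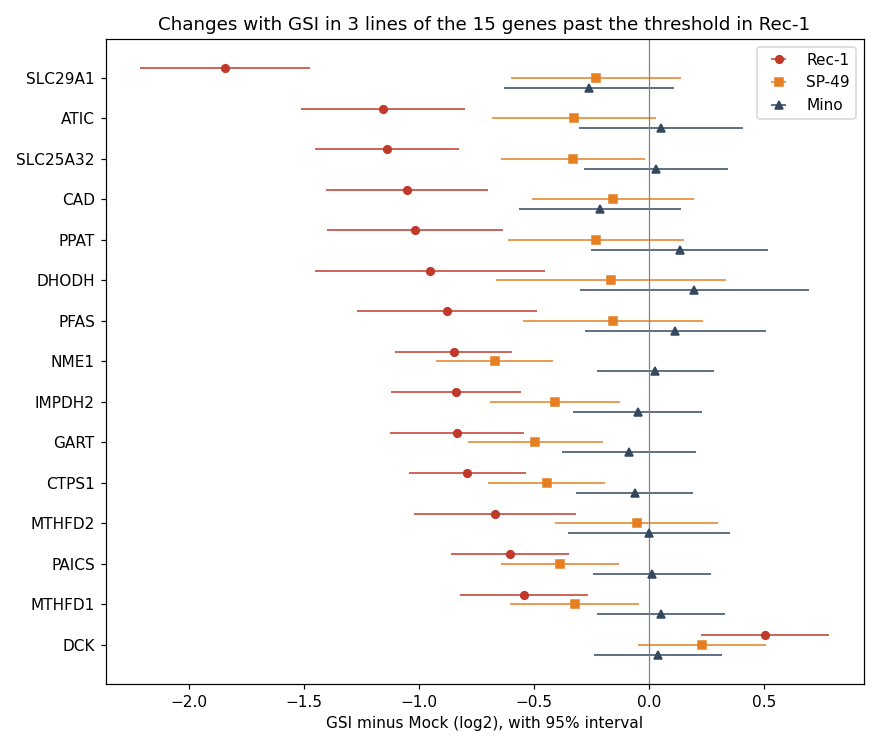
GSI minus Mock change on the log2 scale of the 15 members that passed the threshold in Rec-1, with circles for Rec-1, squares for SP-49, triangles for Mino and bars for limma's 95% interval of a single gene. The Rec-1 changes run from -1.84 for SLC29A1 to 0.51 for DCK, the SP-49 change of each lies between 0 and its Rec-1 change, and the Mino intervals all cross 0.

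Promoters of the members were searched for CACGTG, the E-box that MYC with its partner MAX binds, which reads the same on both strands. RefSeq windows of GRCh38.p14, from 250 bases before to 50 bases after each gene's start, were at hand for 31 of the 36 measured members. The 6 letters were found in 11 of these 31 (35.5%), beside 2396 of 27305 genes (8.77%) in the whole table. A gene was counted if any of its windows held them. By window they were found in 14 of 52 of the members (26.9%), beside 2548 of all 35116 (7.26%). They were found in 7 of the 12 members with a window that fell in Rec-1, and in 4 of the 19 other members. PPAT and PAICS, both among the 7, share 1 site that was counted for each. Those shares were not tested. The 4 other members were AK4, UCKL1, DCK and MTHFD1L, so the letters were also found at the gene that rose. A match is a description of the sequence and no sign of binding in these cells. The stretches around the match in the members that fell are printed here, on the gene's own strand, with the E-box in capitals.
ATIC, chr2:215312003-215312028 (+): gccggcgggcCACGTGataagcccgg
ATIC, chr2:215312078-215312103 (+): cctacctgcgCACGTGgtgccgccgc
DHODH, chr16:72008575-72008600 (+): cgctactgcgCACGTGcacccaacca
MTHFD1, chr14:64388328-64388353 (+): agtccctaagCACGTGggttgggttg
NME1, chr17:51153583-51153608 (+): tgctgcgaacCACGTGggtcccgggc
PAICS, chr4:56435782-56435801 (+): gtatttgctgCACGTGgaaa
PPAT, chr4:56435782-56435807 (-): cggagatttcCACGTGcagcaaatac
SLC29A1, chr6:44219365-44219385 (+): cagtgCACGTGctcccaggtc
ATIC holds 1 match before its start and 1 after it. The matches of PPAT and PAICS are 1 and the same site read on opposite strands, since the PPAT start at 56435615 on chromosome 4 lies head to head with the PAICS start at 56435752. That is 1 of 3 PAICS starts in the RefSeq table, of which the first, at 56410507, lies within PPAT, and the windows of the other two hold no match. The 136 bases between those starts hold no match and are printed to show how close these starts lie. Both genes fell in Rec-1.
PPAT to PAICS, chr4:56435616-56435751 (+): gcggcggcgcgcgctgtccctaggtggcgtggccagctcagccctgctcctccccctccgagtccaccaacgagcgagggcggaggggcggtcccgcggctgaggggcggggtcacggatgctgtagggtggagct

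MYC itself fell in Rec-1, with 7.12 and 6.52 in GSI arrays against 8.32 and 8.38 in Mock arrays, a change of -1.53 (adjusted p = 0.000754). It also fell in SP-49, with 5.79 and 5.75 in GSI arrays against 7.33 and 7.31 in Mock arrays, a change of -1.55 (adjusted p = 0.00565). Its change did not pass the test of a difference between Rec-1 and SP-49 (0.02, 95% interval -0.53 to 0.56, adjusted p = 0.991). In Mino its change was 0.13, with 9.86 and 10.04 in GSI arrays against 9.92 and 9.72 in Mock arrays. A part of MYC in the changes of the members was not tested.

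In SP-49 the members lay mostly a little lower with GSI, and none of the 36 passed the threshold by limma, beside 0.172% of all genes that fell and 0.0202% that rose. The smallest adjusted p was 0.0533, and 9 members had an unadjusted p under 0.05, all with a negative change, beside 1754 of all 19775 genes. The median over the members was -0.23, beside -0.02 over all genes, and 33 of 36 changes were negative, beside 54.2% over all genes. Both GSI arrays lay below both Mock arrays for 23 members, beside 24.4% of all genes, and above them for DCK and TK1, beside 18.1%. The median over members was -0.15 on GSI replicate 1 and -0.26 on GSI replicate 2. Over all genes it was 0.0005 and -0.05, and 57.5% of all genes lay below the Mock mean on GSI replicate 2. With quantile normalization applied again, the median change in SP-49 was -0.12 over the members and 0.01 over all genes. The size of this small shift therefore depends on how the arrays are scaled. The summed B-cell markers ran from 41.8 to 42.6 in SP-49 GSI arrays, above the 41.2 of both SP-49 Mock arrays. Of them, MS4A1, CD79A and CD79B were higher in SP-49 GSI arrays and PAX5 and CD22 lower, and their part was not tested.

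NME1 stood first in SP-49, with 8.61 and 8.48 in GSI arrays against 9.25 and 9.19 in Mock arrays. The groups did not overlap, and the change was -0.67 (adjusted p = 0.0533). GART had 6.11 and 6.26 in GSI arrays against 6.63 and 6.73 in Mock arrays, a change of -0.49. CTPS1 had 6.48 and 6.61 in GSI arrays against 6.99 and 6.98 in Mock arrays, a change of -0.44. For both of these the GSI arrays were the lower ones. IMPDH2, with 7.26 and 7.11 in GSI arrays against 7.63 and 7.56 in Mock arrays, changed by -0.41. PAICS, with 7.95 and 7.92 in GSI arrays against 8.31 and 8.33 in Mock arrays, changed by -0.39. The remaining 4 of the 9 were PRPS2 (-0.40), UMPS (-0.39), SLC25A32 (-0.33) and MTHFD1 (-0.32). With an intensity trend and a robust prior in the model, NME1, PAICS and IMPDH2 passed the threshold. SLC29A1, the member that moved furthest in Rec-1, had 4.46 and 4.19 in SP-49 GSI arrays against 4.55 and 4.56 in SP-49 Mock arrays. CAD had 6.11 and 6.36 in GSI arrays against 6.60 and 6.19 in Mock arrays, and its groups overlapped. PPAT also overlapped, with 6.09 and 5.62 in GSI arrays against 5.93 and 6.23 in Mock arrays, a change of -0.23. Its second expressed probe set changed by -0.91 in SP-49 (adjusted p = 0.313, over all probe sets) and by -0.64 in Rec-1 (adjusted p = 0.23, over all probe sets), so the order of both lines for PPAT depends on the probe set.

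The 14 members that fell in Rec-1 all had a negative change in SP-49, and 5 of the 14 had one in Mino. In Rec-1 and SP-49 together, 29 of the 36 members had a negative change in both lines. Over all genes 48.0% of changes were negative in Rec-1, 54.2% in SP-49 and 50.8% in Mino. The share of all genes negative in both Rec-1 and SP-49 was not counted.

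In Mino, whose HES1 was already low in Mock cells, the members' changes lay close to 0 on both sides. None of the 36 passed the threshold, and 0% of all genes did. The median over the members was 0.03, with 26 changes positive, beside 9719 of all 19775 genes. An unadjusted p under 0.05 was found for 969 of all genes and for 1 member. That was MTR, with 6.40 and 6.13 in GSI arrays against 6.03 and 5.36 in Mock arrays, a change of 0.57 (adjusted p = 0.969). Its Mock arrays were far apart. ATIC had 9.07 and 9.15 in GSI arrays against 9.04 and 9.07 in Mock arrays, and SLC25A32 had 7.26 and 7.21 in GSI arrays, within its Mock values of 7.04 and 7.36. GART, CAD and SLC29A1 had both GSI arrays below both Mock arrays, beside 17.0% of all genes. PPAT, DHODH, TK1 and MTR had both above, beside 16.2%. For SLC29A1 the Mino values were 6.21 and 6.20 in GSI arrays against 6.25 and 6.68 in Mock arrays.

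Whether the lines differed in their change was tested directly, and these tests share arrays with each other. Between Rec-1 and Mino, 5 of the 36 members had a lower change in Rec-1, beside 0.870% of all genes lower and 0.561% higher. The differences were -1.58 for SLC29A1 (95% interval -2.11 to -1.06, adjusted p = 0.0117), -1.21 for ATIC (adjusted p = 0.0304), -1.17 for SLC25A32 (adjusted p = 0.0197), -1.15 for PPAT (adjusted p = 0.0484) and -0.88 for NME1 (adjusted p = 0.0285). The other 9 members that fell in Rec-1 did not pass this test. Between Rec-1 and SP-49, SLC29A1 alone passed, with a difference of -1.61 (95% interval -2.14 to -1.09, adjusted p = 0.0166), beside 0.172% of all genes lower and 0.384% higher. Between SP-49 and Mino no member passed by limma, beside 0.0405% of all genes lower and 0.00506% higher. In that test 4 members had an unadjusted p under 0.05, beside 1417 of all 19775 genes. The count for Rec-1 against Mino was 10 without Rec-1 GSI replicate 1, 2 without Mino Mock replicate 2 or either SP-49 Mock array, 1 without Mino Mock replicate 1 or Rec-1 Mock replicate 1, and 0 without either Mino GSI array or Rec-1 Mock replicate 2. The count for Rec-1 against SP-49 was 3 without Rec-1 GSI replicate 1, and 0 without Rec-1 Mock replicate 2, either SP-49 Mock array or SP-49 GSI replicate 1.

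Without inhibitor, the Mock arrays of the lines differed in many members. Of the 36, 18 differed between Rec-1 and Mino (5 higher and 13 lower in Rec-1), beside 12.8% of all genes higher and 13.3% lower. Between SP-49 and Mino 21 differed (2 higher and 19 lower in SP-49), beside 13.9% higher and 11.8% lower. Between Rec-1 and SP-49 17 differed (13 higher and 4 lower in Rec-1), beside 13.1% higher and 15.8% lower. Mino had the highest level, by both tests, of 11 members: PRPS1, PAICS, ATIC, IMPDH1, GMPS, AK4, CAD, HPRT1, TYMS, MTHFD1 and MTHFD2. A second PAICS probe set, with a mean level of 8.07 against 8.28 for the one used, was highest in Rec-1. Its Mock means were 8.89 in Rec-1, 7.56 in SP-49 and 8.30 in Mino, so the order of the lines for PAICS depends on the probe set. Rec-1 had the highest level of SLC29A1, DTYMK, SHMT2 and SLC25A32, and SP-49 of none. SP-49 had the lowest level of 9 members: PPAT, GART, IMPDH2, CAD, DHODH, SLC29A1, NME1, SHMT2 and SLC25A32. How many of all genes were highest or lowest in a line by both tests was not counted. These counts of members therefore cannot be set against a share of all genes. No difference passed for PRPSAP1, PRPSAP2, PFAS, ADSL, APRT, UCKL1, SHMT1, MTHFD1L and ALDH1L2.

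The widest gap between lines belonged to CTPS2, the second CTP synthase, whose Mock arrays had 2.26 and 1.70 in Rec-1, 5.40 and 5.37 in SP-49, and 5.91 and 5.60 in Mino. Rec-1 was lower than Mino by a difference of -3.77 (adjusted p = 9.55e-08) and lower than SP-49 by -3.40 (adjusted p = 1.94e-07). Its other probe set had Mock means of 2.59 in Rec-1, 5.39 in SP-49 and 4.94 in Mino, in which Rec-1 was also the low line. CTPS1, its paralog, had 7.38 and 7.41 in Rec-1, 6.99 and 6.98 in SP-49, and 7.03 and 7.12 in Mino.

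SLC29A1 had Mock values of 6.84 and 7.13 in Rec-1, 4.55 and 4.56 in SP-49, and 6.25 and 6.68 in Mino. SP-49 was the low line, with Rec-1 higher by 2.43 (adjusted p = 7.06e-07) and SP-49 against Mino at -1.91 (adjusted p = 6.37e-06). With GSI, the Rec-1 values of 5.06 and 5.22 lay between the Mock values of SP-49 and of Mino. SHMT2 had Mock values of 9.85 and 9.79 in Rec-1, 8.30 and 8.27 in SP-49, and 9.08 and 9.02 in Mino, with no overlap among the lines. Rec-1 stood 1.53 above SP-49 (adjusted p = 1.41e-06) and 0.77 above Mino (adjusted p = 0.00036). UMPS was lowest in Mino, with Mock values of 6.78 and 6.65 in Rec-1, 6.85 and 6.94 in SP-49, and 5.56 and 5.82 in Mino. It stood 1.02 higher in Rec-1 (adjusted p = 0.000495) and 1.20 higher in SP-49 (adjusted p = 0.000149). DTYMK was the other member lowest in Mino, with Rec-1 1.21 higher (adjusted p = 2.26e-05) and SP-49 0.69 higher (adjusted p = 0.00146). IMPDH1 had Mock values of 4.36 and 4.46 in Rec-1, 4.07 and 4.06 in SP-49, and 5.69 and 5.19 in Mino, and SP-49 lay lower than Mino at -1.37 (adjusted p = 0.000282). IMPDH2 ran otherwise, with 8.56 and 8.56 in Rec-1, 7.63 and 7.56 in SP-49, and 8.43 and 8.49 in Mino. Line and serum level cannot be told apart in the comparisons with Mino. Leaving out 1 Mock array moved 2 of these counts by more than 1.5 times, while Rec-1 against Mino gave 12 to 16 without a Mock array. SP-49 against Mino gave 13 without Mino Mock replicate 1 and 12 without SP-49 Mock replicate 2, and Rec-1 against SP-49 gave 6 and 11 without Rec-1 Mock replicate 1 and 2, and 8 and 9 without SP-49 Mock replicate 1 and 2.

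**Figure D4:**
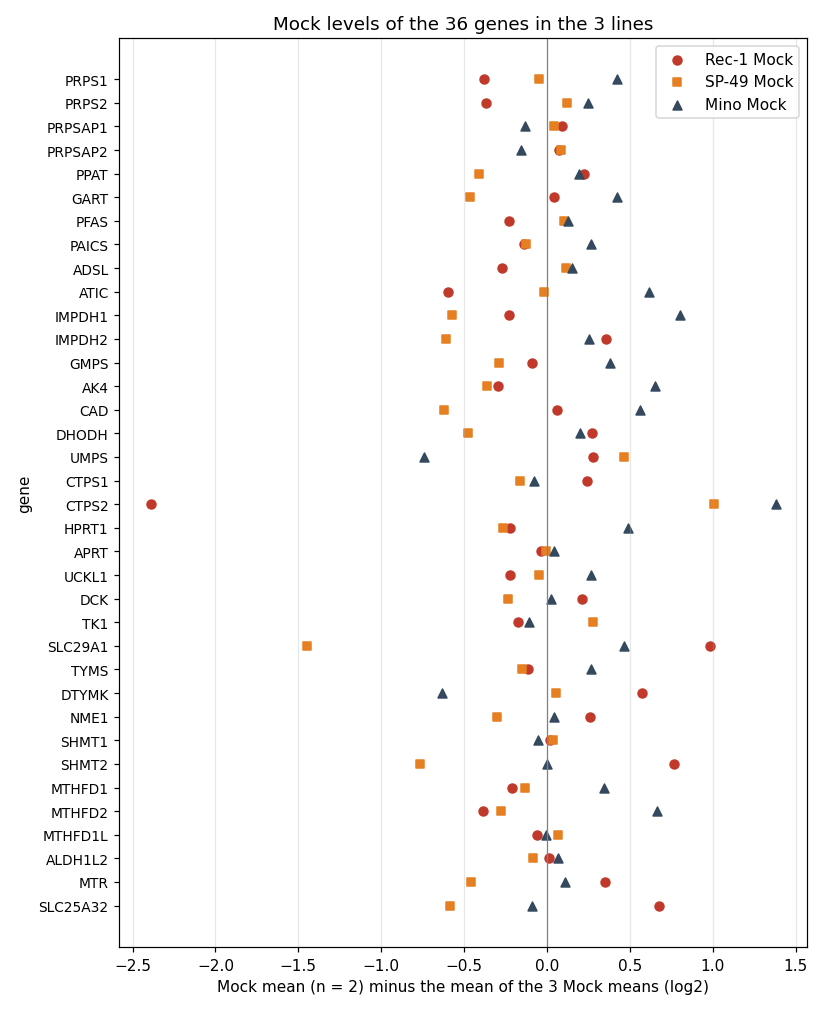
Mock level of each measured member in Rec-1, SP-49 and Mino as log2 value minus the mean of the 3 Mock means, with circles for Rec-1, squares for SP-49, triangles for Mino and each point the mean of 2 arrays. CTPS2 in Rec-1 and SLC29A1 in SP-49 stand far to the left of the other lines, and UMPS stands to the left in Mino.

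Other genes of the same pathways, a list of 66 measured genes, had 7 falls (10.6%) and 1 rise in Rec-1, with a median change of -0.02. The 6 largest falls were SLC19A1, the reduced folate carrier of the cell membrane (-1.09, adjusted p = 0.0175), PSAT1 of serine synthesis (-0.88, adjusted p = 0.0489), GCSH of the glycine cleavage system (-0.86, adjusted p = 0.00441), FPGS, which traps folate in the cell (-0.80, adjusted p = 0.014), DCTPP1, a dCTP pyrophosphatase (-0.67, adjusted p = 0.00852), and PNP, the purine nucleoside phosphorylase (-0.66, adjusted p = 0.0116). AMPD3, an AMP deaminase, rose by 0.91 (adjusted p = 0.0369). The ribonucleotide reductase subunits RRM1 and RRM2, which make deoxynucleotides, changed by -0.01 (adjusted p = 0.981) and 0.04 (adjusted p = 0.912). PHGDH and PSPH, the other enzymes of serine synthesis, changed by -0.26 (adjusted p = 0.464) and -0.02 (adjusted p = 0.966). In SP-49 none of the 66 passed by limma, and SLC19A1 had a change of -1.07 (adjusted p = 0.109). There 11 of the 66 had an unadjusted p under 0.05, beside 1754 of all 19775 genes. In Mino none passed, with 2 at an unadjusted p under 0.05, beside 969 of all 19775 genes. Of 20 genes of DNA replication, such as the MCM helicase subunits, none passed in any line by limma. Their median change was -0.05 in Rec-1, 0.01 in SP-49 and -0.05 in Mino. In Rec-1 3 of the 20 had an unadjusted p under 0.05, beside 3794 of all 19775 genes.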

How the data were processed

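Biotin-labelled RNA was hybridised to 12 Affymetrix arrays, each with 54675 probe sets, and the authors' deposited values are on the log2 scale, from 0.578 to 12.78. RMA and limma were used, per the submitters' processing notes; no version is named there. Base 2 was inferred from the values. Of the probe sets, 41097 named 1 gene, 1801 several and 11777 none, and a gene was read from the probe set of highest mean that named it alone. The members and lists were chosen with earlier results of these data known. All listed members were named, with MYC, HES1, RRM1, RRM2, FPGS, SLC19A1, PHGDH, PSAT1 and PSPH whatever their p, and up to 6 other pathway genes each way per line by size of change.

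Changes were fitted with limma 3.58.1 in R 4.3.3 (lmFit with 6 group means over all 12 arrays, eBayes with a constant prior), and two-sided p-values were adjusted by Benjamini-Hochberg over 19775 genes within each contrast. The fit was tested on simulated data. A change in 1 line had a median standard error of 0.164 over genes, a precision limited by having 2 arrays per group. Nothing in the labels says that replicates were separate cultures, so p-values measure only how far these arrays spread, and that may be technical. Alternatives were every probe set alone, probe sets averaged per gene, removal of dim genes, repeated quantile normalization, centring on medians, a robust prior with an intensity trend, a line's own arrays only, a minimum of 1.5-fold, a replicate block, array weights, each array left out in turn (12 fits), and both doubted arrays left out. When 1 array was left out, the remaining one was assumed to vary like the other groups.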

Additional observations from a re-analysis of the deposited data

Results flagged for a closer look

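The change with GSI differed between lines, by limma's test of the difference itself, for 6 results. Between Rec-1 and Mino the difference was -1.58 for SLC29A1 (adjusted p = 0.0117), -1.21 for ATIC (adjusted p = 0.0304), -1.17 for SLC25A32 (adjusted p = 0.0197), -1.15 for PPAT (adjusted p = 0.0484) and -0.88 for NME1 (adjusted p = 0.0285). Between Rec-1 and SP-49 it was -1.61 for SLC29A1 (adjusted p = 0.0166). All 6 had the change in Rec-1 as the more negative one. No group held enough arrays for a test of single outlying samples.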

How the results depend on the processing

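With each of the 12 arrays left out in turn, the count of members past the threshold ran from 8 to 18 in Rec-1 (15 with all arrays), from 0 to 1 in SP-49 and stayed at 0 in Mino. It ran from 0 to 10 for the difference in change between Rec-1 and Mino (5 with all arrays), from 0 to 3 between Rec-1 and SP-49 (1 with all arrays) and stayed at 0 between SP-49 and Mino. For the Mock levels it ran from 12 to 21 for Rec-1 against Mino, from 12 to 21 for SP-49 against Mino and from 6 to 17 for Rec-1 against SP-49. Without both doubted arrays the counts were 9 in Rec-1 and 2 for Rec-1 against Mino. With only the 4 arrays of the line, Rec-1 had 1, SLC29A1, which was also the one call kept under every alternative run. In SP-49 the mean of the probe sets, median centring and array weights each gave 1, and the trend with a robust prior gave 3. That prior gave 14 for the difference between Rec-1 and Mino, 1 between SP-49 and Mino and 4 between Rec-1 and SP-49. Same-numbered arrays of a line did not deviate together (r of 0.09 in Rec-1, -0.01 in SP-49 and 0.05 in Mino), so the numbers were not taken as pairs. The replicate block gave counts of 12 in Rec-1, 0 in SP-49, 0 in Mino, 1 for the difference between Rec-1 and Mino, 12 for Mock SP-49 against Mino and 11 for Mock Rec-1 against SP-49. Quantile normalization applied again moved the split of all genes in Rec-1 to 657 higher and 600 lower, against 426 and 715 as deposited, and the members' median to -0.32. No called member changed sign under any alternative run, and of 2037 recomputed values that were not called, 78 changed sign. That comparison used a member's brightest probe set or the mean of its probe sets, so other single probe sets did not enter it. Some of those had the opposite sign in Rec-1. Another PPAT probe set, with a mean level of 2.22, changed by 0.66 (adjusted p = 0.0638 by limma, over all probe sets). Probe sets of GART (0.20) and DHODH (0.04 and 0.05) with mean levels under 1.99 also had positive changes. The cause of these differences was not tested.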

Other observations

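Serine synthesis, the pathway that feeds carbon to folate, has 3 enzymes. In Mock cells PHGDH and PSPH had the same order of the lines, and PSAT1 had the reverse order. PSAT1, the aminotransferase of the middle step, had Mock values of 7.76 and 7.64 in Rec-1, 5.72 and 6.04 in SP-49, and 2.37 and 3.11 in Mino. Rec-1 was higher than Mino by 4.96 (adjusted p = 3.12e-08) and SP-49 by 3.14 (adjusted p = 1.42e-06). PHGDH, the first enzyme, ran the other way, with 3.62 and 3.25 in Rec-1, 4.26 and 4.53 in SP-49, and 6.67 and 6.51 in Mino. Rec-1 lay below Mino at -3.16 (adjusted p = 1.19e-07) and SP-49 at -2.19 (adjusted p = 2.47e-06). PSPH, the last enzyme, was also lowest in Rec-1, at -1.86 against Mino (adjusted p = 1.54e-06) and -1.11 against SP-49 (adjusted p = 6.92e-05).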
